A study of Mus musculus with 6 samples.

Results

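The mitochondrial genome of the mouse encodes 13 mRNAs, 2 rRNAs and 22 tRNAs, and their levels were followed in activated CD8+ T cells treated with blebbistatin. The genes were taken by name, as every row whose gene name starts with mt-, which gave 37 of the 47729 genes in the deposited tables. The class of each came from the GENCODE annotation of build GRCm38, in which all 37 had the same position as in the tables. The cells came from mouse spleen. The blebbistatin group (3 libraries) received 2 µM of the drug, an inhibitor of the ATPase of non-muscle myosin II, for 24 h, and the vehicle group (3 libraries) received vehicle. Both groups were activated CD8+ cells. The labels name no strain, age, sex or activating stimulus, and they do not say what the vehicle was. Nor do they say whether the replicates came from separate animals or cultures, so each p-value speaks only for the variation among these 6 samples, and that may be technical.

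Mitochondrial DNA is a small circle that is transcribed on both strands into long precursor RNAs. The tRNAs lie between most of the mRNAs and rRNAs, and their excision releases the neighbouring transcripts, which then receive short poly(A) tails. The mRNAs encode subunits of the respiratory chain and of ATP synthase, the rRNAs build the mitochondrial ribosome, and the tRNAs decode the mRNAs there. All proteins that transcribe, process, stabilise or degrade these RNAs are encoded in the nucleus. In T cells, activation is known to raise mitochondrial mass and respiration. The library kit, TruSeq RNA v2, enriches polyadenylated RNA and does not mark strand. Reads over a gene can therefore come from RNA of either strand, and where genes overlap on opposite strands their reads cannot be told apart.

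Depth, read from the ratio of the deposited coverage to FPKM, was 5.54 to 5.98 Gb of aligned sequence per library. The T cell markers were present throughout. Cd8a, a chain of the CD8 co-receptor, stood at 432.9, 429.1 and 425.9 TPM with blebbistatin and at 414.8, 408.8 and 412.3 TPM with vehicle, and Trac, the T cell receptor alpha constant region, was the highest of the list at 729.2 ± 30.1 TPM with blebbistatin and 688.9 ± 11.1 TPM with vehicle (SD, n = 3 each). None of the 9 T cell markers passed the test, and 1 had an unadjusted p under 0.05 by limma, against 22.9% of all genes tested. The blebbistatin libraries were spread along the first principal component of all genes, at 30.5, 0.2 and 14.5 for libraries 1, 2 and 3, while the vehicle libraries lay together at -15.5, -13.4 and -16.4.

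The 37 genes made up 9.14%, 7.21% and 7.33% of all TPM in blebbistatin libraries 1, 2 and 3, against 6.89%, 6.58% and 6.87% in the vehicle libraries. As a share of aligned bases they held 4.15%, 3.34% and 3.44% with blebbistatin and 3.16%, 3.01% and 3.09% with vehicle. On both scales all blebbistatin libraries lay above all vehicle libraries, and blebbistatin library 1 stood highest. In bulk RNA, more mitochondrial RNA per cell and more cells rich in it cannot be told apart. Nearly all of this signal was mRNA. The 13 mRNAs took 3.96%, 3.19% and 3.28% of aligned bases with blebbistatin and 3.01%, 2.85% and 2.93% with vehicle, while both rRNAs together took 0.147% ± 0.0183 with blebbistatin and 0.141% ± 0.00406 with vehicle, and the 22 tRNAs 0.0179% ± 0.00198 and 0.0174% ± 0.000506 in the same order (SD, n = 3 each).

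mt-Co1, which encodes the catalytic subunit of cytochrome c oxidase, had the highest TPM of all genes in each of the 6 libraries. In all, 10 of the 13 mRNAs ranked among the 50 highest genes of every library. mt-Nd3, a small subunit of complex I, ranked between 120 and 158, mt-Nd6 between 40 and 67, and mt-Atp6 between 11 and 201. The rRNAs, although they are abundant RNAs in the cell, ranked between 83 and 200 in these poly(A)-enriched libraries.

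**Figure D1:**
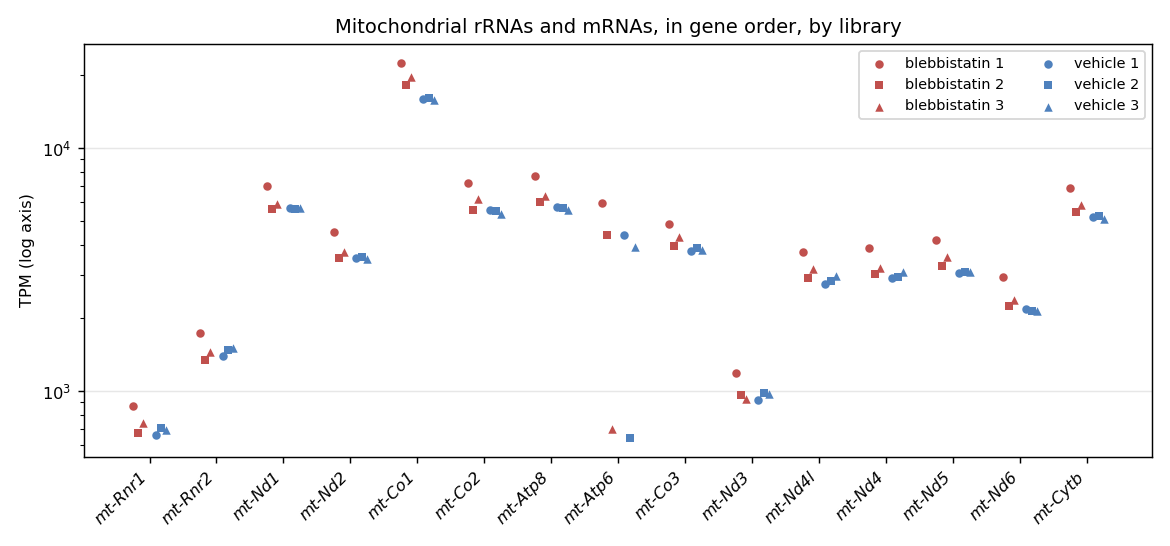
TPM of both mitochondrial rRNAs and the 13 mRNAs in gene order, on a log axis, with 1 point per library for blebbistatin (red, left) and vehicle (blue, right). mt-Co1 stands highest at 15862 to 22489 TPM, and mt-Atp6 is at 696.2 TPM in blebbistatin library 3 and at 641.6 TPM in vehicle library 2.

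Several of these genes have near-identical copies in the nuclear genome, and this bears on the levels of those genes. A stretch of mouse chromosome 1 on the minus strand, chr1:24611535-24616197 in GRCm38, holds 7 annotated unprocessed pseudogenes in the order of the mitochondrial genes they match. Gm28661 matched 681 bases of mt-Co2, Gm10925 matched 678 bases of mt-Atp6, Gm28437 matched 783 bases of mt-Co3 and Gm10222 matched 294 bases of mt-Nd4l, each with 0 mismatches over at least 99.0% of the mitochondrial transcript. Gm28439 matched 876 bases of mt-Nd4, or 63.6% of it, without a mismatch. The other two pairs had 1 mismatch each. Gm28438 carries T3C relative to mt-Nd3 over 345 bases, and Gm29216 carries A1066T relative to mt-Co1 over the 483 bases it covers, 31.3% of that transcript. Positions count from 1 at the 5′ end of the mitochondrial transcript. The windows around both differences are shown because outside these bases the matched stretches are the same. Sequences are from the GENCODE transcripts, the differing base is in capitals, and the windows are chrMT:9459-9481 on the plus strand, chr1:24613097-24613119 on the minus strand, chrMT:6390-6413 on the plus strand and chr1:24616165-24616188 on the minus strand, in the order below.
mt-Nd3: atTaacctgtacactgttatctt
Gm28438: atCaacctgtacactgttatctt
mt-Co1: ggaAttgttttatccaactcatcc
Gm29216: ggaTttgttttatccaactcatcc

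The copies carried TPM values close to those of the mitochondrial genes. For mt-Co2, mt-Co3, mt-Nd3 and mt-Nd4l, whose copies span nearly the whole transcript, the copy stood at 0.798 to 0.995 of the mitochondrial gene over the 6 libraries. Gm28439 stood at 0.664 to 0.686 of mt-Nd4, and Gm29216 at 0.215 to 0.219 of mt-Co1. Reads that match both places equally cannot be assigned from their sequence, and expression of the nuclear copies cannot be told apart from a split of mitochondrial reads. The 7 copies together summed to 30616, 24136 and 25918 TPM with blebbistatin and to 23111, 22859 and 23077 TPM with vehicle. With them, the mitochondrial genes held 5.05%, 4.05% and 4.21% of aligned bases with blebbistatin and 3.85%, 3.68% and 3.78% with vehicle. Beyond chromosome 1, 4 further copies matched at 95% identity or more over at least 100 bases, and these averaged between 0.93 and 17.67 TPM. In all, 9 of the 37 genes had such a copy among the annotated GENCODE transcripts, the only sequences searched. mt-Atp8 and several tRNA genes lie between the genes matched on chromosome 1, where unannotated sequence was not searched. The 22 tRNA genes are shorter than this minimum length, so they could not be counted.

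mt-Atp6, which encodes a subunit of the proton channel of ATP synthase, varied by library and not by group. It stood at 5967, 4379 and 696.2 TPM in blebbistatin libraries 1, 2 and 3, against 4376, 641.6 and 3914 TPM in vehicle libraries 1, 2 and 3. Its copy Gm10925 was steady, at 6498, 5107 and 5393 TPM with blebbistatin and 4894, 4817 and 4790 TPM with vehicle. The ratio of copy to gene was 1.1, 1.2 and 7.7 with blebbistatin and 1.1, 7.5 and 1.2 with vehicle, so the 2 libraries with a low mt-Atp6 were the only ones far from the rest. mt-Atp6 also shares its first 43 bases with the end of mt-Atp8, a further subunit gene of the same enzyme. The end of mt-Atp8, chrMT:7907-7969 on the plus strand, is shown because reads across it belong to both genes, with the shared bases in capitals.
mt-Atp8 end: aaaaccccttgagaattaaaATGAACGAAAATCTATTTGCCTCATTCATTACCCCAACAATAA

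**Figure D2:**
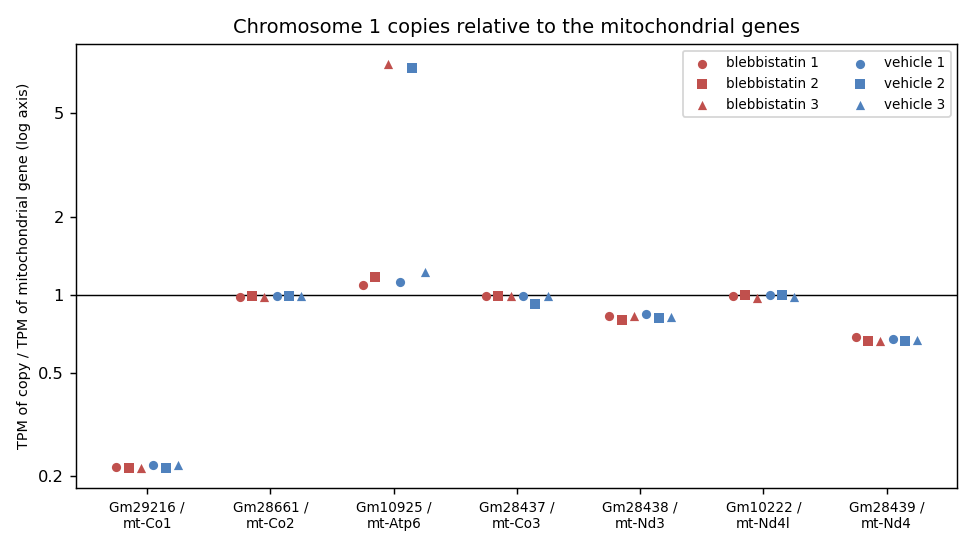
TPM of each chromosome 1 copy divided by the TPM of the mitochondrial gene it matches, on a log axis, for the blebbistatin libraries (red, left) and the vehicle libraries (blue, right). The ratio for mt-Atp6 is 7.7 in blebbistatin library 3 and 7.5 in vehicle library 2, against 1.1 to 1.2 in the other libraries.

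Blebbistatin was compared with vehicle by limma on log2(TPM + 1), with Benjamini-Hochberg adjustment over the 13372 genes that averaged at least 1 TPM. All 37 mitochondrial genes were among these. None passed an adjusted p of 0.05, against 1.82% of all genes tested, which were 187 higher and 57 lower. At an unadjusted p under 0.05, 6 of the 37 passed, against 22.9% of all genes. The fitted difference was above 0 for 30 of the 37 and below 0 for 7, against 7373 of the 13372 genes tested above 0. The median was 0.12 on the log2 scale, against a median of 0.03 over all genes. The members share libraries and precursor RNAs, so their signs are not separate observations. The groups did not overlap for 9 of the 37, each higher with blebbistatin, and of all genes 31.0% did not overlap, 18.0% higher and 13.0% lower. The count over all genes rests on single libraries. It was 1090 without blebbistatin library 2, with 496 higher and 594 lower, and then 3 mitochondrial genes passed, mt-Co1 (log2 0.39, adjusted p = 0.025), mt-Co3 (log2 0.26, adjusted p of 0.05 after rounding) and mt-Nd5 (log2 0.33, adjusted p = 0.045), all higher. Without blebbistatin library 1 it was 120, without blebbistatin library 3 it was 3, and without vehicle libraries 1, 2 and 3 it was 13, 11 and 7.

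All 13 mRNAs had a fitted difference above 0, against 11 with quantile scaling and 9 when each library was corrected for length and GC content, and the median was 0.20 on the log2 scale, against 0.12 and 0.05 with those settings. For 7 of the 13 the groups did not overlap, all higher with blebbistatin, against 18.0% of all genes that did not overlap and were higher. Blebbistatin library 1 was highest, library 3 next and library 2 lowest of its group in every mRNA except mt-Nd3 and mt-Atp6. The median difference of the 13 mRNAs from the vehicle mean was 0.40, 0.05 and 0.16 on the log2 scale in blebbistatin libraries 1, 2 and 3, against 0.05, 0.02 and 0.03 over all genes. Leaving out blebbistatin library 1 brought the median of the fitted mRNA differences to 0.10, with 11 of the 13 above 0. The summed level of the 12 mRNAs other than mt-Atp6 was 76705, 60763 and 65296 TPM with blebbistatin and 57414, 57614 and 57119 TPM with vehicle.

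The cytochrome c oxidase mRNAs included the mitochondrial gene with the smallest p-value. mt-Co1 had 22489, 18166 and 19612 TPM with blebbistatin and 16022, 16080 and 15862 TPM with vehicle. All blebbistatin libraries lay above the vehicle libraries, and the vehicle libraries lay within a narrow range. The means were 20089 ± 2201 TPM with blebbistatin and 15988 ± 113.1 TPM with vehicle (SD, n = 3 each), a log2 difference of 0.32 with a standard error of 0.08 and a limma adjusted p of 0.091. After a correction of each library for transcript length and GC content, which was added after seeing the data, mt-Co1 passed with a smaller difference (log2 0.19, adjusted p = 0.041). mt-Co2, the subunit that takes electrons from cytochrome c, had 7213, 5581 and 6183 TPM with blebbistatin and 5565, 5513 and 5364 TPM with vehicle. mt-Co3, the remaining mitochondrial core subunit, had 4877, 3965 and 4322 TPM with blebbistatin and 3780, 3895 and 3804 TPM with vehicle. Neither overlapped between groups, although blebbistatin library 2 was close to the vehicle libraries in both, and the adjusted p was 0.24 for mt-Co2 and 0.19 for mt-Co3 by limma.

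**Figure D3:**
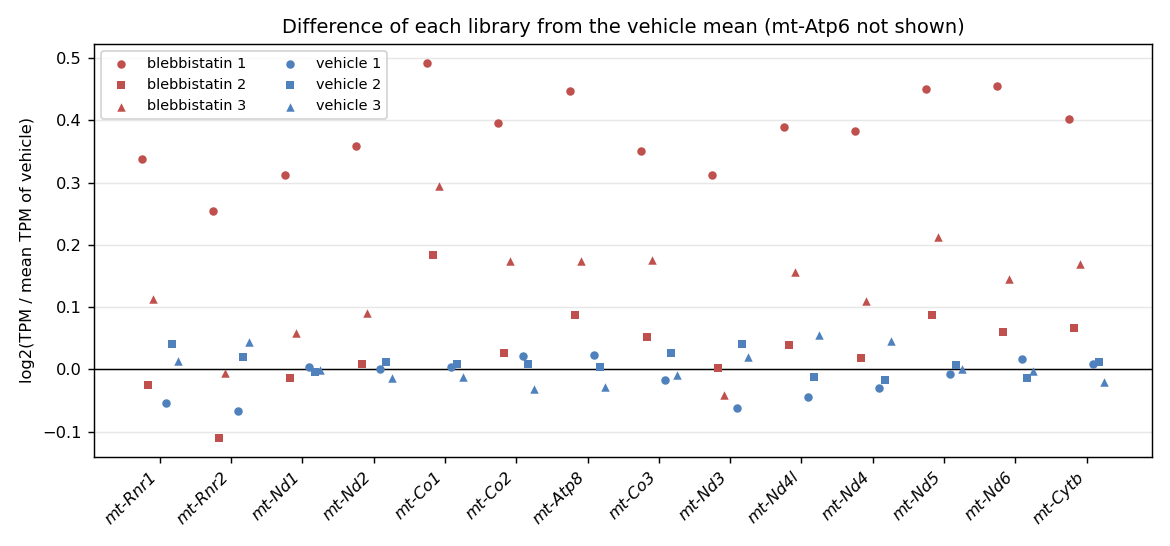
Difference of each library from the vehicle mean, as the log2 ratio of TPM, for both rRNAs and the 12 mRNAs other than mt-Atp6, with blebbistatin in red (left) and vehicle in blue (right). Blebbistatin library 1 is the highest point for every gene, and mt-Co1 has the largest difference in each blebbistatin library, at 0.49, 0.18 and 0.29.

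The complex I mRNAs, which encode membrane subunits of NADH dehydrogenase, differed less evenly. mt-Nd1 had 7026, 5603 and 5892 TPM with blebbistatin and 5674, 5643 and 5654 TPM with vehicle. mt-Nd2 had 4518, 3543 and 3753 TPM with blebbistatin and 3525, 3554 and 3490 TPM with vehicle. In both genes blebbistatin library 2 lay within or below the range of the vehicle libraries, and the adjusted p was 0.42 and 0.34. mt-Nd3 was the lowest mRNA by mean, at 1192, 961.6 and 933.3 TPM with blebbistatin and 919.9, 987.3 and 973.2 TPM with vehicle. Only blebbistatin library 1 lay above the vehicle libraries there (log2 0.09, adjusted p = 0.58).

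mt-Nd4l and mt-Nd4 overlap by 7 bases on the same strand and ordered the 6 libraries alike. mt-Nd4l had 3742, 2937 and 3183 TPM with blebbistatin and 2770, 2833 and 2969 TPM with vehicle. mt-Nd4 had 3899, 3027 and 3228 TPM with blebbistatin and 2929, 2955 and 3086 TPM with vehicle. In both, blebbistatin library 2 lay below vehicle library 3, and the adjusted p was 0.24 and 0.31. mt-Nd5 had 4211, 3276 and 3574 TPM with blebbistatin and 3067, 3098 and 3087 TPM with vehicle. mt-Nd6, the single mRNA on the minus strand, had 2948, 2242 and 2379 TPM with blebbistatin and 2176, 2131 and 2148 TPM with vehicle. The groups did not overlap for either, with a log2 difference of 0.25 (adjusted p = 0.17) for mt-Nd5 and 0.22 (adjusted p = 0.23) for mt-Nd6 by limma. These genes overlap by 14 bases on opposite strands, and without strand information reads in the overlap cannot be assigned to either. Outside the overlap too, RNA of the opposite strand would count for mt-Nd6, so its level may not be that of the minus-strand mRNA alone. The ratio of mt-Nd6 to mt-Nd5 was 0.70, 0.685 and 0.666 with blebbistatin and 0.709, 0.688 and 0.696 with vehicle, so the groups overlapped.

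mt-Cytb, the mitochondrially encoded subunit of complex III, had 6875, 5449 and 5851 TPM with blebbistatin and 5236, 5250 and 5132 TPM with vehicle. mt-Atp8 had 7716, 6012 and 6385 TPM with blebbistatin and 5749, 5676 and 5551 TPM with vehicle. In both, all blebbistatin libraries were above all vehicle libraries, with a log2 difference of 0.21 (adjusted p = 0.20) for mt-Cytb and 0.24 (adjusted p = 0.19) for mt-Atp8 by limma.

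The rRNA levels overlapped between groups. mt-Rnr1, the rRNA of the small ribosomal subunit, had 867.1, 673.8 and 741.6 TPM with blebbistatin and 660.4, 705.3 and 692.1 TPM with vehicle. mt-Rnr2, the rRNA of the large subunit, had 1739, 1351 and 1453 TPM with blebbistatin and 1393, 1479 and 1503 TPM with vehicle. The adjusted p was 0.38 for mt-Rnr1 (log2 0.14) and 0.79 for mt-Rnr2 (log2 0.05). With the length and GC correction both fitted differences were below 0, at -0.04 and -0.14. mt-Rnr2 stood at 2.01, 2.01 and 1.96 times mt-Rnr1 with blebbistatin and at 2.11, 2.1 and 2.17 times with vehicle.

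The tRNA genes spanned the widest range of levels. They are 59 to 75 bases long, 14 on the plus strand and 8 on the minus strand, and a read over one can come from the mature tRNA, from a precursor or from a neighbouring transcript, which these tables do not separate. mt-Tl1, a leucine tRNA gene that fills the gap between mt-Rnr2 and mt-Nd1, was the highest, with 1591, 1316 and 1326 TPM with blebbistatin and 1391, 1379 and 1333 TPM with vehicle. In humans this gene holds the binding site of the termination factor MTERF1. mt-Ts1, a serine tRNA gene, was the lowest, with 1.78, 1.96 and 0.889 TPM with blebbistatin and 0.344, 1.62 and 1.33 TPM with vehicle. The groups overlapped in both genes. Their sequences are shown as the ends of this range, mt-Tl1 at chrMT:2676-2750 on the plus strand and mt-Ts1 at chrMT:6870-6938 on the minus strand, with the 3 bases that mt-Ts1 shares with the opposite strand of mt-Co1 in capitals.
mt-Tl1: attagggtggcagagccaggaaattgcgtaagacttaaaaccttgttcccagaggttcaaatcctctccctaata
mt-Ts1: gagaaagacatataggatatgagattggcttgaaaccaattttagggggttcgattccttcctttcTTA

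After mt-Tl1 the highest were the minus-strand tRNA genes for asparagine, glutamate, cysteine, alanine and proline. Reads over them may come from RNA of either strand. mt-Tn averaged 657.1 ± 90.6 TPM with blebbistatin and 591.1 ± 24.7 TPM with vehicle, and mt-Te averaged 532.1 ± 94.6 TPM with blebbistatin and 532.2 ± 15.3 TPM with vehicle (SD, n = 3 each). mt-Tc averaged 491.6 ± 57.8 and 455.9 ± 19.6 TPM, mt-Ta 384.2 ± 53.3 and 353.6 ± 15.0 TPM, and mt-Tp 274.6 ± 35.7 and 252.6 ± 19.6 TPM, each with blebbistatin and then with vehicle. These means differed by less than the spread of the blebbistatin libraries, and in mt-Te they were almost equal. At the low end, besides mt-Ts1, the genes mt-Tf, mt-Tv, mt-Ti, mt-Tq and mt-Td stayed below 30 TPM in every library. Among the 22 tRNAs, 15 had a fitted difference above 0, or 9 with the length and GC correction, and 7 below. Over all genes 7373 of 13372 were above 0. The tRNA median was 0.08 on the log2 scale, and the adjusted p lay between 0.19 and 0.99 by limma.

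The groups did not overlap for 2 of the 22 tRNA genes, or 9.09%, both higher with blebbistatin, against 18.0% of all genes that did not overlap and were higher. mt-Ty, the tyrosine tRNA gene just before mt-Co1, had 274.5, 237.0 and 245.0 TPM with blebbistatin and 232.9, 235.4 and 229.8 TPM with vehicle (log2 0.11, adjusted p = 0.33 by limma). mt-Td, the aspartate tRNA gene between mt-Ts1 and mt-Co2, had 9.47, 7.97 and 8.50 TPM with blebbistatin and 6.64, 6.86 and 7.67 TPM with vehicle (log2 0.26, adjusted p = 0.19 by limma). Vehicle library 3 was the highest of the 6 libraries in mt-Tr at 215.1 TPM, in mt-Th at 337.3 TPM, in mt-Ts2 at 245.9 TPM and in mt-Tl2 at 143.3 TPM. The same library had 65.5 TPM of Rpph1, the RNA of RNase P, 59.2 TPM of Rn7sk and 53.4 TPM of Rmrp, all small RNAs without a poly(A) tail, against at most 18.2, 4.68 and 2.34 TPM in the other 5 libraries. The list of RNAs without a poly(A) tail holds 9 such small RNAs and 9 histone mRNAs. The small RNAs summed to 6.78, 12.7 and 11.3 TPM with blebbistatin and 24, 16 and 178.4 TPM with vehicle, and the histone mRNAs summed to 16.2, 55.6 and 29.0 TPM with blebbistatin and 57.8, 57.9 and 74.2 TPM with vehicle. None of the 11 tested members of the list passed, with 3 at an unadjusted p under 0.05 by limma, against 22.9% of all genes. All 11 had a fitted difference below 0, with a median of -1.08 on the log2 scale, against 0.03 over all genes. The part of this list in the tRNA and rRNA levels was not tested.

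**Figure D4:**
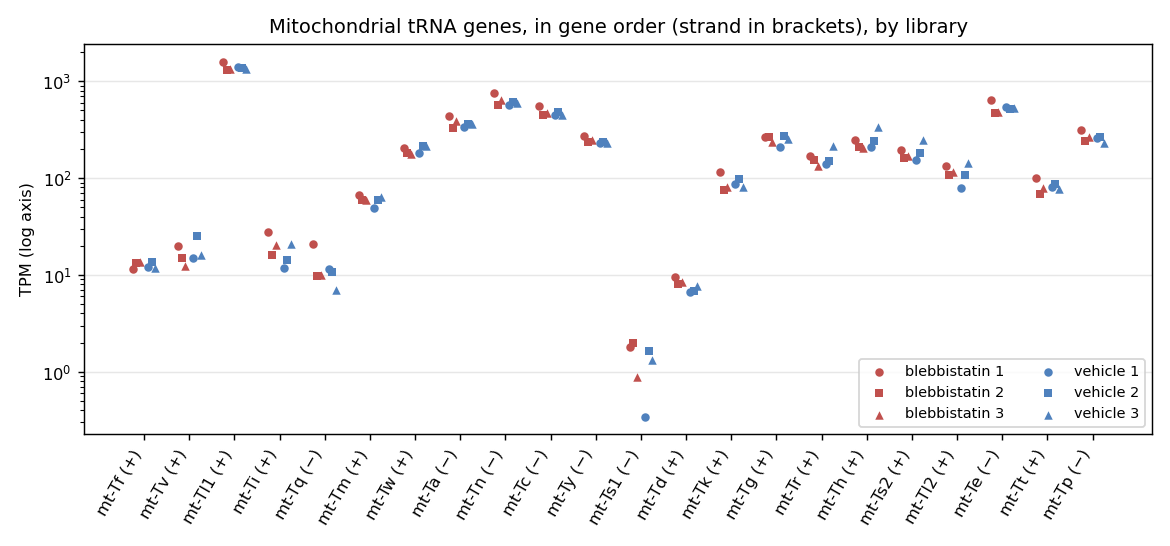
TPM of the 22 mitochondrial tRNA genes in gene order, with the strand in brackets, on a log axis, for the blebbistatin libraries (red, left) and the vehicle libraries (blue, right). Levels run from 0.344 TPM for mt-Ts1 to 1591 TPM for mt-Tl1, and the groups overlap except for mt-Ty and mt-Td.

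Ratios within a library do not depend on the scaling between libraries, and some of them separated the groups more evenly than the levels did. They were chosen after the values were seen and are given without a test. The summed rRNAs stood at 0.034, 0.0333 and 0.0336 of the 12 mRNAs with blebbistatin and at 0.0358, 0.0379 and 0.0384 with vehicle. The summed tRNAs stood at 0.0802, 0.0817 and 0.0788 of the 12 mRNAs with blebbistatin and at 0.0876, 0.0926 and 0.095 with vehicle. In both ratios all blebbistatin libraries lay below all vehicle libraries. The blebbistatin libraries lay close together, although the mRNA levels of blebbistatin libraries 1 and 2 were far apart. The sums of the small RNAs and of the histone mRNAs without a poly(A) tail were each lower in every blebbistatin library than in every vehicle library too, and their part in these ratios was not tested.

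Within the mRNAs, mt-Co1 took 29.3%, 29.9% and 30.0% of the summed TPM of the 12 with blebbistatin and 27.9%, 27.9% and 27.8% with vehicle. The chromosome 1 copies are not counted in these shares. mt-Nd1 took 9.16%, 9.22% and 9.02% with blebbistatin and 9.88%, 9.79% and 9.90% with vehicle. The ratio of mt-Co1 to mt-Nd1 was therefore 3.20, 3.24 and 3.33 with blebbistatin and 2.82, 2.85 and 2.81 with vehicle, with no overlap between groups. The share of mt-Nd2, mt-Nd3, mt-Nd4 and mt-Cytb was also lower in every blebbistatin library than in every vehicle library. The shares of mt-Co2, mt-Co3, mt-Atp8, mt-Nd4l, mt-Nd5 and mt-Nd6 overlapped. All shares add up to a fixed total, so a higher share of mt-Co1 by itself lowers the others. Without mt-Co1, mt-Cytb held 6875 of 54216 TPM in blebbistatin library 1 and 5236 of 41391 TPM in vehicle library 1. With the chromosome 1 copies added, mt-Nd4 held 5600 of 96442 TPM in blebbistatin library 1 and 4179 of 72459 TPM in vehicle library 1. In each case the blebbistatin library had the higher share, so these separations depend on what is counted.

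**Figure D5:**
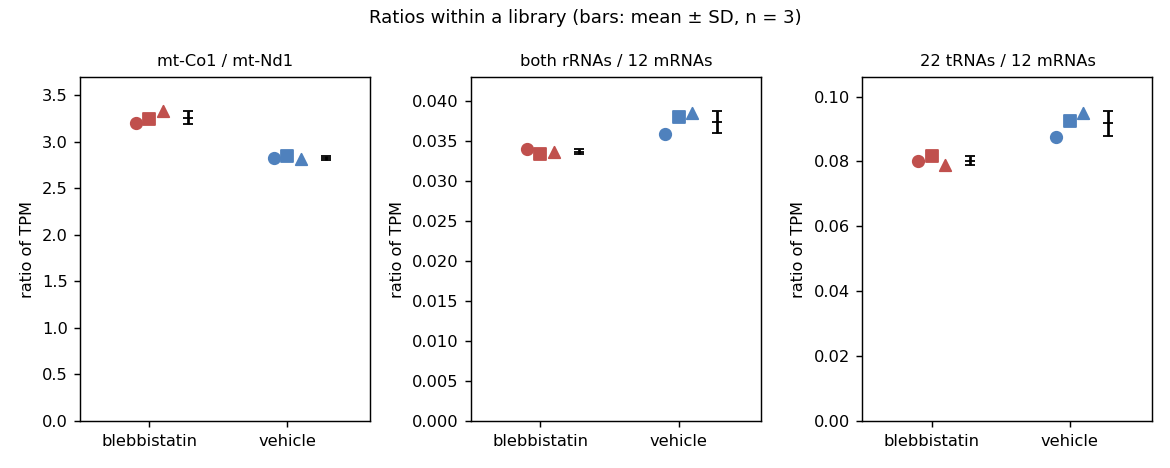
Ratios of TPM within each library for mt-Co1 over mt-Nd1, both rRNAs over the 12 mRNAs other than mt-Atp6, and the 22 tRNAs over the same mRNAs, with blebbistatin (red) left of vehicle (blue), 1 point per library and the mean ± SD (n = 3) beside them. mt-Co1 over mt-Nd1 is 3.20 to 3.33 with blebbistatin and 2.81 to 2.85 with vehicle, and the groups do not overlap in the other two panels either.

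Nuclear genes that act on mitochondrial DNA and RNA were read from the same fit, from 6 lists of 104 genes, of which 101 were tested. None was higher and 1 was lower at an adjusted p under 0.05, against 1.40% higher and 0.426% lower of all genes. The median difference was -0.02 on the log2 scale. The gene that fell was Tbrg4, also known as FASTKD4, which stabilises several mitochondrial mRNAs. It had 77.7, 86.7 and 84.5 TPM with blebbistatin and 102.8, 104.0 and 104.3 TPM with vehicle (log2 -0.32, standard error 0.06, adjusted p = 0.047 by limma). All blebbistatin libraries were below all vehicle libraries, but the call was lost when any library other than blebbistatin 2 was left out, and with no minimum level, no trend or quantile scaling. Without blebbistatin 2, 9 of the 101 tested regulators passed, 1 higher and 8 lower. In that setting 1090 of all 13372 genes passed, 496 higher and 594 lower.

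Among 11 transcription genes, 7 were above 0 and 4 below, against 7373 of 13372 genes above 0, and none passed. By limma 4 had an unadjusted p under 0.05, against 22.9% of all genes. Polrmt, the mitochondrial RNA polymerase, had 15.4, 19.4 and 16.7 TPM with blebbistatin and 22.2, 20.3 and 24.1 TPM with vehicle (log2 -0.36, adjusted p = 0.13), with no overlap between groups. Mterf3, a negative regulator of mitochondrial transcription in mice, was named after its values were seen, as the gene of this list with the smallest adjusted p. It had 50.7, 44.6 and 44.4 TPM with blebbistatin and 37.7, 30.7 and 31.8 TPM with vehicle (log2 0.47, adjusted p = 0.065), also with no overlap. Of the 101 tested regulators 24.8% did not overlap between groups, against 31.0% of all genes. Tfam, which packages mitochondrial DNA and starts its transcription, averaged 34.8 ± 1.6 TPM with blebbistatin and 36.2 ± 3.92 TPM with vehicle (SD, n = 3 each; adjusted p = 0.76). Of the 15 genes of replication and maintenance none passed. Polg, the catalytic subunit of the DNA polymerase, averaged 21 ± 2.90 TPM with blebbistatin and 23.5 ± 1.98 TPM with vehicle, and Twnk, the helicase, averaged 19.1 ± 0.237 TPM with blebbistatin and 21.1 ± 0.0727 TPM with vehicle, with adjusted p of 0.43 and 0.25 by limma (SD, n = 3 each).

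RNA stability and decay held 15 tested genes, of which Tbrg4 alone passed. Lrpprc, which binds and stabilises mitochondrial mRNAs, averaged 81.5 ± 3.59 TPM with blebbistatin and 81.9 ± 2.64 TPM with vehicle, and its partner Slirp averaged 18.1 ± 5.02 TPM with blebbistatin and 16.8 ± 2.22 TPM with vehicle (SD, n = 3 each). Pnpt1 and Supv3l1, the exonuclease and the helicase of the degradosome, had adjusted p of 0.84 and 0.38, and Mtpap, the mitochondrial poly(A) polymerase, 0.53 by limma. None of 34 genes of RNA processing and modification passed, with 8 at an unadjusted p under 0.05, and none of 18 translation factors, with 4. Over all genes 22.9% had an unadjusted p under 0.05 by limma. Of the biogenesis regulators 8 were tested and none passed, with 0 at an unadjusted p under 0.05. Nrf1, a transcription factor for nuclear genes of respiration, averaged 39.6 ± 1.00 TPM with blebbistatin and 42.7 ± 6.90 TPM with vehicle, and the coactivator Ppargc1b averaged 4.54 ± 0.486 TPM with blebbistatin and 4.98 ± 0.547 TPM with vehicle (SD, n = 3 each). Its relative Ppargc1a is listed at 0 in every library.

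Some platelet and B cell markers differed between the groups. Of 12 platelet markers 8 were tested and 5 passed, all higher, namely Pf4, Ppbp, Itga2b, Treml1 and Vwf, against 1.40% of all genes that passed and were higher. Pf4, a platelet chemokine, had 53.8, 70.0 and 68.9 TPM with blebbistatin and 28.8, 32.4 and 28.5 TPM with vehicle (log2 1.07, adjusted p = 0.016 by limma), a call that was lost without blebbistatin library 3 or any 1 of the vehicle libraries (adjusted p = 0.059 to 0.09). Ppbp, a further platelet chemokine, averaged 38.4 ± 1.64 TPM with blebbistatin and 13.1 ± 2.00 TPM with vehicle (SD, n = 3 each; log2 1.49, adjusted p = 0.0079 by limma), and of the 6 libraries it lost its call only without blebbistatin library 3 (adjusted p = 0.059). The summed platelet markers were 120.7, 139.9 and 135.3 TPM with blebbistatin and 55.2, 63.9 and 54.3 TPM with vehicle. Of 6 tested B cell markers 2 passed, Igkc and H2-Eb1, both higher, while Ighm, the highest of them, averaged 477.5 ± 12.6 TPM with blebbistatin and 500.0 ± 7.77 TPM with vehicle (SD, n = 3 each; adjusted p = 0.39). The B cell sum was 637.4 to 731.3 TPM with blebbistatin and 615.8 to 636.2 TPM with vehicle, with Ms4a1 and Pax5 near 0. The myeloid sum, mostly Cst3, was 71.1 to 101.3 TPM with blebbistatin and 93.8 to 95.2 TPM with vehicle, and the erythroid sum 5.48 to 5.88 and 5.02 to 6.61 TPM in the same order. None of the 3 myeloid and 2 erythroid markers tested passed. By limma 1 myeloid marker had an unadjusted p under 0.05, against 22.9% of all genes. The part of other cells in the mitochondrial RNA levels was not tested.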

How the data were processed

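RNA of 3 blebbistatin and 3 vehicle samples was sequenced on an Illumina NovaSeq instrument after TruSeq RNA v2 preparation, per the labels' protocols. The submitters' processing notes name build mm10 and the tools StringTie 1.3.4, HISAT2 2.1.0 and DESeq2 1.22.2. The deposited tables hold TPM and FPKM made by the authors and the coverage, or mean depth, of each gene. How reads matching several places were handled is not given in the sources used here.

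TPM values were tested as log2(TPM + 1) for genes averaging at least 1 TPM, with limma 3.58.1 in R 4.3.3 (empirical Bayes with a trend) and p-values adjusted by Benjamini-Hochberg, called at 0.05. Differences are on that scale, which makes those of low genes too small. Shares of aligned bases used FPKM times gene length. Depth in reads is not known from these values, and no intervals of counting error are given. Copies were found with blastn 2.17.0 among GENCODE M21 transcripts, at 95% identity or more over at least 100 bases. The fit was tested on simulated data. It recovered 57 of 100 genes changed 1.5-fold and 83 of 100 changed 2-fold, with 9 false calls. Smaller changes, such as those fitted for the mitochondrial mRNAs, were not simulated. Alternatives were other pseudocounts, minima, scalings and moderation, a replicate block and leaving out each library.

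Named were all mRNAs and rRNAs, the 6 highest tRNAs, regulators that passed plus 11 set by name, and of each marker list the highest member and those that passed. Further names were chosen after their values were seen. The members and lists were chosen with earlier results of these data known. In the lists, 4 genes had no row of their name.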

Additional observations from a re-analysis of the deposited data

How the results depend on the processing

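The fitted differences of mt-Co1, mt-Co2, mt-Co3, mt-Atp8, mt-Nd4l, mt-Nd5, mt-Nd6 and mt-Cytb were not below 0 in any of the 19 alternatives. That of mt-Co1 ranged from 0 to 0.39, the 0 with quantile scaling, where the highest gene of every library takes the same value by construction. The count of genes that passed was 49 with no minimum level, 160 without a trend and 457 with the length and GC correction (300 higher, 157 lower), and between 3 and 1090 when 1 library was left out. The count of mitochondrial genes was 1 with the length and GC correction and 0 to 3 with 1 library left out. That of nuclear regulators was 0 with no minimum level, without a trend and with quantile scaling, and 0 to 9 with 1 library left out. The summed mRNA difference of 0.24 was 0.07 with quantile scaling, 0.23 with the chromosome 1 copies added and 0.24 without mt-Atp6. With 1 library left out it ranged from 0.12, without blebbistatin library 1, to 0.30. Causes of these shifts were not tested.

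Libraries with the same replicate number did not deviate together (r = 0.011, -0.037 and -0.034 for numbers 1, 2 and 3), so the numbers were not taken as pairs. With the replicate block no gene passed, a count of 0 for all genes, mitochondrial genes and regulators.

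Some single differences changed sign. With the length and GC correction they were -0.04 for mt-Rnr1, -0.14 for mt-Rnr2, -0.04 for mt-Nd1, -0.03 for mt-Nd2, -0.09 for mt-Nd3, -0.01 for mt-Nd4, -0.01 for mt-Ta, -0.03 for Slirp, -0.11 for Pnpt1, -0.02 for Mtpap and 0.0033 for Ppargc1b. The medians were then 0.05 for mRNAs, -0.09 for rRNAs and -0.01 for tRNAs. With quantile scaling they were -0.03 for mt-Nd1, 0.02 for mt-Te and 0.02 for Lrpprc. With TPM over nuclear genes they were 0.0032 for mt-Te and 0.01 for Lrpprc, and with median-ratio scaling -0.0011 for Pnpt1. With 1 library left out, mt-Rnr2 ranged from -0.06 to 0.12, mt-Atp6 from -0.65 to 1.20, mt-Nd3 from -0.02 to 0.16, mt-Tl1 from -0.05 to 0.09, mt-Te from -0.16 to 0.07, Tfam from -0.13 to 0.03, Lrpprc from -0.04 to 0.03, Slirp from -0.08 to 0.30, Pnpt1 from -0.03 to 0.10 and Nrf1 from -0.21 to 0.02. Each group has 3 libraries, reads shared with chromosome 1 cannot be assigned, and mt-Ts1, with a mean depth of 0.913 to 5.56 reads, carries a large counting error.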
